A study of Mus musculus with 6 samples.

Results

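The 8 genes Foxo1, Foxo3, Foxp1, Pik3ip1, Inpp5d, Ddit4, Sesn1 and Tsc22d3 were followed across sorted mouse CD4+ T cells. They comprise forkhead transcription factors, genes whose products hold back signalling through phosphoinositide 3-kinase (PI3K), Akt and mTORC1, and Tsc22d3. The last encodes a leucine zipper protein that damps T cell activation. Every probe set that the array's annotation assigns to 1 of the 8 symbols alone was taken, which gave 8 probe sets, 1 for each gene. Probe sets with several symbols were not taken for the 8 genes. In all, 23410 probe sets were named, and 19938 genes had a probe set of their own. No filter on low values was applied, so all 8 were tested. RNA came from CD4+ CD44+ (antigen-experienced) T cells of the draining lymph nodes of male mice aged 8 to 10 weeks. All mice carried the Bcl6_RFP reporter, in which red fluorescence marks cells that use the Bcl6 locus, and all had been immunised with KLH/CFA, a foreign protein antigen in an oily adjuvant. Flow sorting gave 3 groups of 2 biological replicates each, namely Cxcr5+Bcl6+, Cxcr5+Bcl6- and Cxcr5-Bcl6- cells. The sort therefore defined Bcl6 by a reporter and not by the protein, and the sources used here do not say whether mice were pooled. The series asks what Bcl6 expression goes with in follicular helper T cells, the CD4+ cells that help B cells in germinal centres.

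PI3K makes a membrane lipid that recruits and activates Akt. Akt phosphorylates Foxo transcription factors, which then leave the nucleus, and it relieves the inhibition of the growth-promoting kinase complex mTORC1. In mouse T cells, Foxo1 maintains genes of homing and survival such as Il7r and Klf2, and both Foxo1 and Foxp1 are known to restrain the follicular helper programme, while PI3K signalling downstream of the costimulator Icos favours it. Foxo activity is set largely by phosphorylation, so the mRNA levels given here do not measure it.

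Levels of Ddit4 and Pik3ip1 had the same order over the 3 groups, and Sesn1 was the one member with a forkhead motif in its promoter window. The sequences below show the 250 bases before the start site of Ddit4 and of Pik3ip1, and the stretch of Sesn1 around its motif. They come from RefSeq on build GRCm38.p6 and read 5′ to 3′ on the strand of the gene. Ddit4 lies at chr10:59951771-59952020 on the minus strand, Pik3ip1 at chr11:3330481-3330730 on the plus strand and Sesn1 at chr10:41810586-41810612 on the plus strand. Capitals mark ACGTG, the core letters of hypoxia response elements, in Ddit4, and TGTTTAC, the reverse complement of the forkhead motif GTAAACA, in Sesn1.
Ddit4: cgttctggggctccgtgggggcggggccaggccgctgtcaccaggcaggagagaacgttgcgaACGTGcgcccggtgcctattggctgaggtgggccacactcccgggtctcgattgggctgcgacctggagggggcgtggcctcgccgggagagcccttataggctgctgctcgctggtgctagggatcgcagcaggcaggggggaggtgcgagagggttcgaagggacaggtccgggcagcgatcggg
Pik3ip1: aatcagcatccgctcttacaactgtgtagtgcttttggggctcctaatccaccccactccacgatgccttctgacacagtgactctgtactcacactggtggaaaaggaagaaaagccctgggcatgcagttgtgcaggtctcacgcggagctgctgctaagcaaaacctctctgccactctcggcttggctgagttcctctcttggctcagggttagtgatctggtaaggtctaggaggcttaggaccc
Sesn1: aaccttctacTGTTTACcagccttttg

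The 4 motifs GTAAACA (forkhead), ACGTG (hypoxia response core), TGTTCT (letters of glucocorticoid receptor sites) and TGACG (letters of cyclic AMP response elements) were searched on both strands. The windows ran from 250 bases before to 50 bases after each start site, and the 8 genes had 13 such windows of 32851 in all. GTAAACA stood in 3.65% of all windows and in 1 window of the genes, at position 22 after a start site of Sesn1. ACGTG stood in 19.6% of all windows and, among the genes, only in that of Ddit4, at position -187. TGTTCT was present in 19% of windows and in 1 of the 3 windows of Tsc22d3. TGACG was present in 20.8% of windows and in 5 windows of the genes, 1 each of Foxo3, Foxp1, Inpp5d, Sesn1 and Tsc22d3. No pair of these matches lay in the same window, and the Pik3ip1 window held none of the 4 motifs. These matches describe letters and were not tested as binding sites.

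The sorted genes followed their labels. Mean Bcl6 levels were 11.50 in Cxcr5+Bcl6+ cells, against 10.56 in Cxcr5+Bcl6- and 10.31 in Cxcr5-Bcl6- on the log2 scale of the arrays, and Cxcr5 stood 3.52 and 2.47 above Cxcr5-Bcl6- cells in the Cxcr5+Bcl6+ and Cxcr5+Bcl6- groups. The 10 measured CD4 T cell markers had median levels of 12.59 in Cxcr5+Bcl6+ cells, against 12.56 in Cxcr5+Bcl6- and 12.35 in Cxcr5-Bcl6-. Markers of other cells also moved with the groups. The summed level of 11 B cell markers was 12.02 to 12.08 in Cxcr5+Bcl6+ cells, against 11.48 to 11.54 in Cxcr5+Bcl6- and 11.08 on both Cxcr5-Bcl6- arrays, and 8 of the 11 were higher and 1 lower in Cxcr5+Bcl6+ over Cxcr5-Bcl6- cells. All 8 measured markers of plasmacytoid dendritic cells were lower in Cxcr5+Bcl6+ cells, with sums of 11.19 to 11.32 in Cxcr5+Bcl6+, 12.24 to 12.26 in Cxcr5+Bcl6- and 13.45 to 13.47 in Cxcr5-Bcl6- cells. Of 14 conventional dendritic and myeloid markers, 7 were lower and 1 was higher in each Cxcr5+ group than in Cxcr5-Bcl6- cells, with sums of 11.33 to 11.35, 11.52 to 11.56 and 13.08 to 13.09 in Cxcr5+Bcl6+, Cxcr5+Bcl6- and Cxcr5-Bcl6- cells. A set of 1203 chemosensory receptor genes (olfactory, vomeronasal and trace-amine), not known to act in T cells, had median log2 changes of 0.22 for Cxcr5+Bcl6+ over Cxcr5-Bcl6- cells and 0.30 for Cxcr5+Bcl6+ over Cxcr5+Bcl6- cells, of the size of several changes below. At an adjusted p under 0.05 in limma, 418 of the 1203 were higher and 1 lower in the first of these comparisons. In the second, 566 were higher and 0 lower. The part of these shifts in the results was not tested, and in sorted bulk RNA fewer cells of a type and less RNA per cell cannot be told apart. Replicates of a group correlated at 0.9962 to 0.9984 over all genes, and p-values measure only the spread between these arrays, whose number limits the precision.

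Within the 8 genes, the mTORC1 and PI3K inhibitors Ddit4, Pik3ip1 and Sesn1 and the factor Foxo3 were higher in Cxcr5+Bcl6+ over Cxcr5-Bcl6- cells, by 1.22-fold to 2.43-fold. Cxcr5+Bcl6+ cells exceeded Cxcr5+Bcl6- cells in the same 4 genes and in Tsc22d3, by 1.28-fold to 1.7-fold. Between Cxcr5+Bcl6- and Cxcr5-Bcl6- cells, Ddit4 was higher and Tsc22d3 lower. Foxo1, Foxp1 and Inpp5d passed the test in none of these comparisons. A call here is an adjusted p under 0.05 in limma, with Benjamini-Hochberg adjustment over all 23410 named probe sets, two-sided and with no threshold on the fold. The plot of levels by array shows every value.

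**Figure D1:**
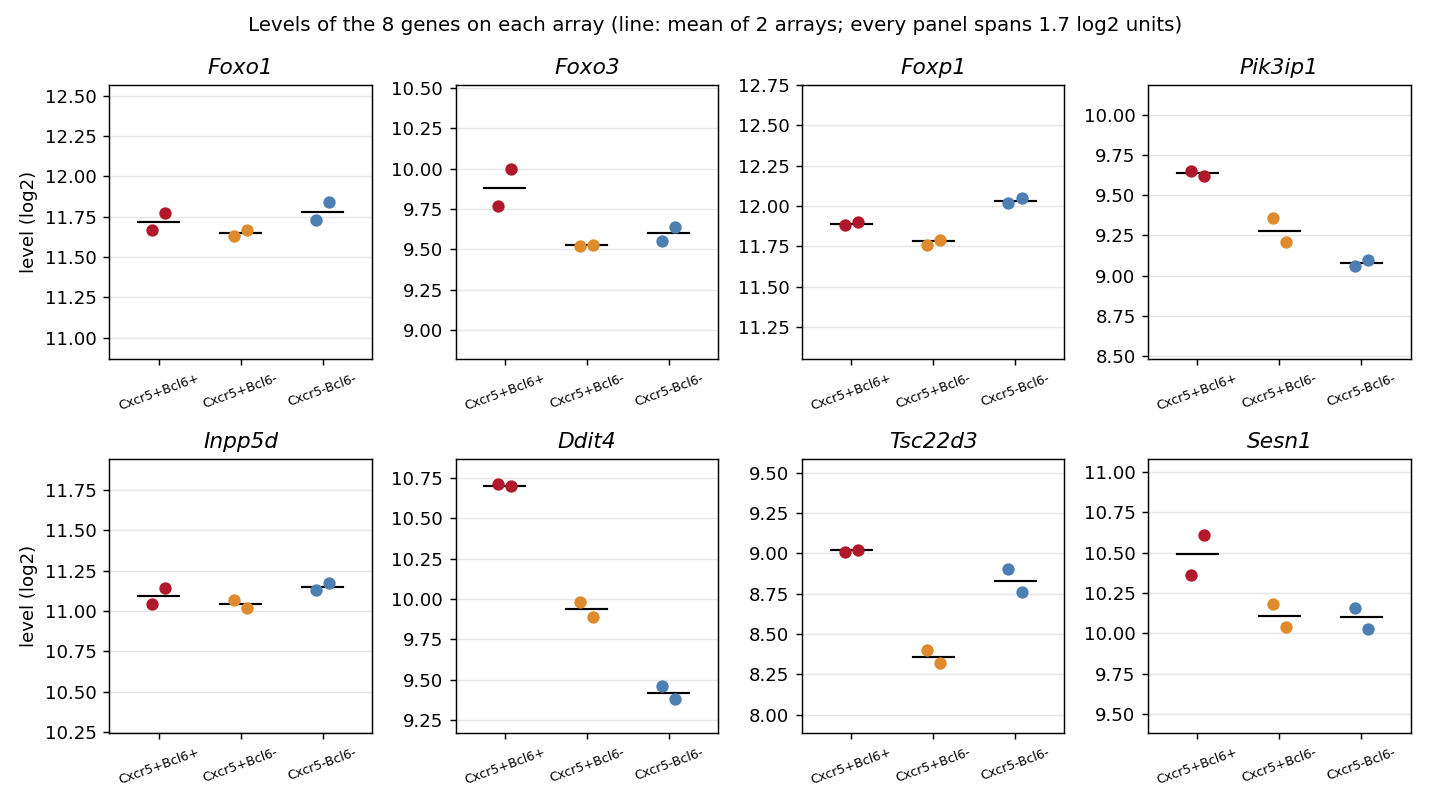
Log2 level (vertical axis) of each of the 8 genes on the 6 arrays, by sorted group (horizontal axis), with a point for each array and a line at the mean of 2 arrays. Every panel spans the same number of log2 units. Ddit4 and Pik3ip1 step down over the 3 groups from left to right, Tsc22d3 is lowest in Cxcr5+Bcl6- cells, and Foxo1, Foxp1 and Inpp5d lie within a range of group means of 0.11 to 0.26.

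For Cxcr5+Bcl6+ against Cxcr5-Bcl6- cells, 4 of the 8 genes were called higher and 0 lower by limma, where 17.6% of all named probe sets were called higher, 17.7% lower and 35.3% in either direction. The median log2 change was 0.24 over the 8 genes and 0.04 over all genes. For Cxcr5+Bcl6+ against Cxcr5+Bcl6- cells, 5 of the 8 were called higher and 0 lower, beside 13.4% higher, 13% lower and 26.4% in either direction over all probe sets, with medians of 0.36 for the 8 genes and 0.06 for all genes. For Cxcr5+Bcl6- against Cxcr5-Bcl6- cells, 1 was called higher and 1 lower, beside 5.22% higher, 5.93% lower and 11.1% in either direction, with medians of -0.09 and -0.03. In each comparison the share of the 8 genes called in either direction lay above that of all probe sets, by few genes. This is a description, because the genes were chosen with results of these data known. The 8 genes lie at level percentiles of 60.7 to 96.8. Among probe sets at or above the median level, 6649 of 11705 were called for Cxcr5+Bcl6+ over Cxcr5-Bcl6- cells. That share exceeded the 4 of 8 genes called. Counts there were 4718 of 11705 and 5 of 8 between the Cxcr5+ groups. For Cxcr5+Bcl6- over Cxcr5-Bcl6- cells they were 2677 of 11705 and 3 of 8. At an unadjusted p under 0.05, the limma fit placed 0 of the 8 lower in Cxcr5+Bcl6+ cells in either of their comparisons. Over all 19938 genes it placed 4068 lower than in Cxcr5-Bcl6- cells and 3371 lower than in Cxcr5+Bcl6- cells. The 3 comparisons share arrays and are not independent. With each array centred on its median, the calls between the Cxcr5+ groups numbered 3 of 8 in place of 5, and the share of all calls that were higher was 35% in place of 50.8%.

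**Figure D2:**
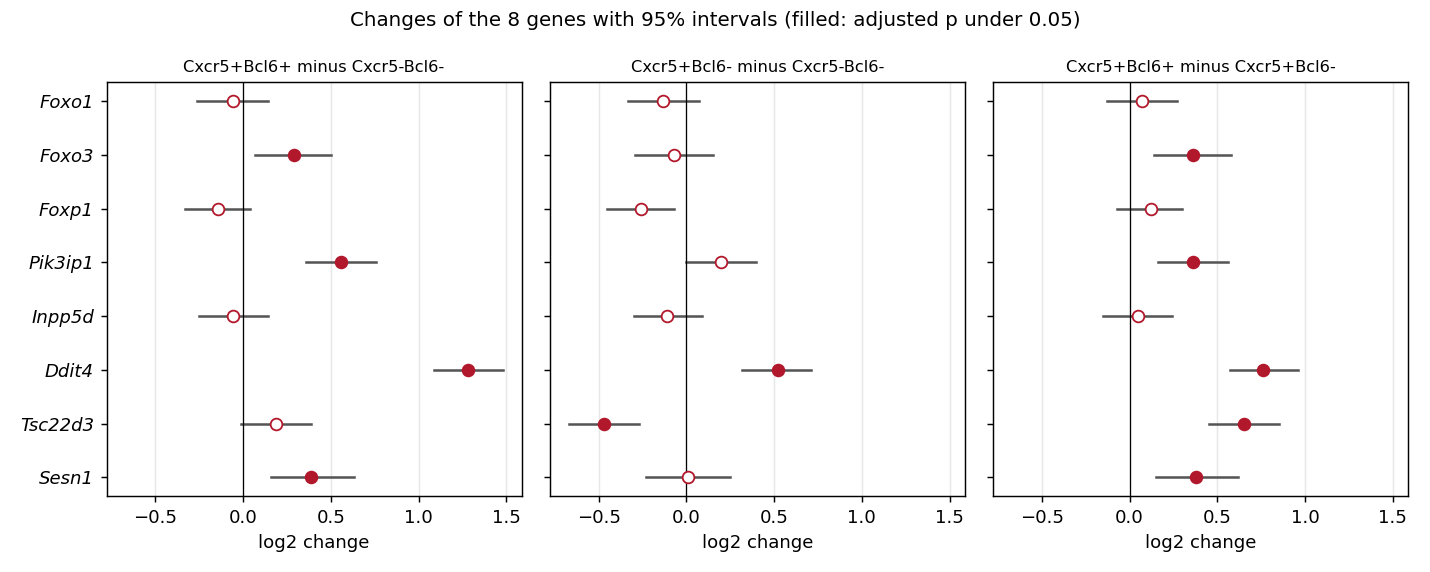
Log2 change (horizontal axis) of each of the 8 genes (vertical axis) in the 3 comparisons, with 95% intervals from limma and filled points where the adjusted p is under 0.05. Ddit4 stands at 1.28, 0.52 and 0.76 with intervals clear of 0 in every panel, and Tsc22d3 lies below 0 in the middle panel and above it on the right.

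Ddit4, also called REDD1, inhibits mTORC1 through the TSC complex and is induced by hypoxia, glucocorticoids and other stresses. Its log2 levels were 10.71 and 10.70 in Cxcr5+Bcl6+ cells, 9.98 and 9.89 in Cxcr5+Bcl6- cells, and 9.46 and 9.38 in Cxcr5-Bcl6- cells. Both arrays of each group lay apart from those of every other group. The change from Cxcr5-Bcl6- cells was 1.28 ± 0.0882 (SE) in Cxcr5+Bcl6+ cells (2.43-fold, limma adjusted p = 7.01e-07) and 0.52 ± 0.0882 in Cxcr5+Bcl6- cells (1.43-fold, limma adjusted p = 0.00279). Cxcr5+Bcl6+ cells exceeded Cxcr5+Bcl6- cells by 0.76 ± 0.0882 (1.7-fold, limma adjusted p = 7.53e-05). Among the 8 genes only Ddit4 was called in all 3 comparisons. Its level in Cxcr5+Bcl6- cells differed from the midpoint of the other groups by -0.12 (95% interval -0.29 to 0.04, limma adjusted p = 0.412).

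Pik3ip1 encodes a transmembrane protein that binds and inhibits the catalytic subunit of PI3K and is known in mouse T cells as a brake on activation. It had log2 levels of 9.65 and 9.62 in Cxcr5+Bcl6+ cells, 9.36 and 9.21 in Cxcr5+Bcl6- cells, and 9.06 and 9.10 in Cxcr5-Bcl6- cells. The groups did not overlap, in the same order as for Ddit4. Cxcr5+Bcl6+ cells were higher than Cxcr5-Bcl6- cells by 0.56 ± 0.0914 (1.47-fold, limma adjusted p = 0.000515). They were also higher than Cxcr5+Bcl6- cells by 0.36 ± 0.0914 (1.28-fold, limma adjusted p = 0.0135). Cxcr5+Bcl6- cells differed from Cxcr5-Bcl6- cells by 0.20 (95% interval -0.00 to 0.40, limma adjusted p = 0.229). The call between the Cxcr5+ groups was lost without Cxcr5+Bcl6+ replicate 1 (0.34, limma adjusted p = 0.0611) and without Cxcr5+Bcl6- replicate 2 (0.28, limma adjusted p = 0.189).

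Sesn1 is a sestrin, a p53 and Foxo target whose product restrains mTORC1 by amino acid sensing and through the kinase AMPK. Its levels were 10.36 and 10.61 in Cxcr5+Bcl6+ cells, against 10.18 and 10.04 in Cxcr5+Bcl6- cells and 10.16 and 10.03 in Cxcr5-Bcl6- cells. Both Cxcr5+Bcl6+ arrays lay above all others, and the remaining groups overlapped. Cxcr5+Bcl6+ cells were higher by 0.39 ± 0.107 than Cxcr5-Bcl6- cells (1.31-fold, limma adjusted p = 0.0138) and by 0.38 ± 0.107 than Cxcr5+Bcl6- cells (1.3-fold, limma adjusted p = 0.022). Cxcr5+Bcl6- and Cxcr5-Bcl6- cells differed by 0.01 (95% interval -0.23 to 0.25, limma adjusted p = 0.984). The first call was lost without Cxcr5+Bcl6+ replicate 2 (0.27, limma adjusted p = 0.111) and without Cxcr5-Bcl6- replicate 2 (0.33, limma adjusted p = 0.0657) and with all rows of the table tested (limma adjusted p = 0.0521), and the second without Cxcr5+Bcl6+ replicate 2 (0.26, limma adjusted p = 0.139), without Cxcr5+Bcl6- replicate 2 (0.31, limma adjusted p = 0.172), with arrays centred on their medians (0.31, limma adjusted p = 0.0673) and with all rows (limma adjusted p = 0.076).

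Tsc22d3, or GILZ, is a leucine zipper protein induced by glucocorticoids and by Foxo3 that damps T cell activation. Its levels were 9.01 and 9.02 in Cxcr5+Bcl6+ cells, 8.40 and 8.32 in Cxcr5+Bcl6- cells, and 8.90 and 8.76 in Cxcr5-Bcl6- cells. It was lowest in the group with Cxcr5 alone, apart from both others. The change of Cxcr5+Bcl6- from Cxcr5-Bcl6- cells was -0.47 ± 0.0911 (1.38-fold lower, limma adjusted p = 0.00615), and Cxcr5+Bcl6+ cells stood 0.65 ± 0.0911 above Cxcr5+Bcl6- cells (1.57-fold, limma adjusted p = 0.000311). Cxcr5+Bcl6+ and Cxcr5-Bcl6- cells differed by 0.19 (95% interval -0.01 to 0.39, limma adjusted p = 0.144). Against the midpoint of the other groups, Cxcr5+Bcl6- cells were lower by 0.56 on the log2 scale, a change of -0.56 (95% interval -0.73 to -0.39, limma adjusted p = 0.000797). Tsc22d3 was the 1 gene of the 8 called in that contrast, beside 4.08% of all named probe sets called lower, 4.16% higher and 8.24% in either direction. The change for Cxcr5+Bcl6- over Cxcr5-Bcl6- cells missed the threshold without Cxcr5+Bcl6- replicate 2 (-0.43, limma adjusted p = 0.0786).

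Foxo3 is a Foxo factor known in T cells for genes of quiescence and cell death. Its levels were 9.77 and 10.00 in Cxcr5+Bcl6+ cells, 9.52 and 9.53 in Cxcr5+Bcl6- cells, and 9.55 and 9.64 in Cxcr5-Bcl6- cells. The Cxcr5+Bcl6+ arrays were the highest of the 6 and the most spread of the 3 pairs. Cxcr5+Bcl6+ cells exceeded Cxcr5-Bcl6- cells by 0.29 ± 0.0991 (1.22-fold, limma adjusted p = 0.0422) and Cxcr5+Bcl6- cells by 0.36 ± 0.0991 (1.28-fold, limma adjusted p = 0.0204). Cxcr5+Bcl6- cells differed from Cxcr5-Bcl6- cells by -0.07 (95% interval -0.29 to 0.15, limma adjusted p = 0.8). The call against Cxcr5-Bcl6- cells was lost under 7 of 16 alternatives. Among them were fits without Cxcr5+Bcl6+ replicate 2 (0.17), without Cxcr5-Bcl6- replicate 1 (0.24) and with arrays centred on their medians (0.24, limma adjusted p = 0.0932). Another was the fit to the 4 arrays compared (0.29, limma adjusted p = 0.0693). Leaving out either Cxcr5+Bcl6- replicate repeats that fit for this comparison, so these alternatives are not separate. The call between the Cxcr5+ groups was lost under 5 of 16, among them without Cxcr5+Bcl6+ replicate 2 (0.24, limma adjusted p = 0.116), without Cxcr5+Bcl6- replicate 1 (0.35, limma adjusted p = 0.11), without Cxcr5+Bcl6- replicate 2 (0.36, limma adjusted p = 0.0977) and with centred arrays (0.28, limma adjusted p = 0.0615).

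Foxo1, the main Foxo factor of mouse T cells, had levels of 11.67 and 11.77 in Cxcr5+Bcl6+ cells, 11.63 and 11.67 in Cxcr5+Bcl6- cells, and 11.73 and 11.84 in Cxcr5-Bcl6- cells. The Cxcr5+Bcl6+ arrays overlapped both other groups. The changes were -0.06 (95% interval -0.26 to 0.14, limma adjusted p = 0.643) for Cxcr5+Bcl6+ over Cxcr5-Bcl6- cells, -0.13 (-0.33 to 0.07, limma adjusted p = 0.486) for Cxcr5+Bcl6- over Cxcr5-Bcl6- cells and 0.07 (-0.13 to 0.27, limma adjusted p = 0.623) for Cxcr5+Bcl6+ over Cxcr5+Bcl6- cells. These intervals bound the mRNA differences and do not show that the groups were alike.

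Foxp1, a forkhead repressor that keeps naive T cells quiescent, had levels of 11.88 and 11.90 in Cxcr5+Bcl6+ cells, 11.76 and 11.79 in Cxcr5+Bcl6- cells, and 12.02 and 12.05 in Cxcr5-Bcl6- cells. Its replicates lay close together and the 3 groups did not overlap. The changes were -0.14 (95% interval -0.33 to 0.04, limma adjusted p = 0.226) for Cxcr5+Bcl6+ and -0.26 (-0.45 to -0.07, limma adjusted p = 0.0803) for Cxcr5+Bcl6-, each over Cxcr5-Bcl6- cells. Cxcr5+Bcl6+ stood against Cxcr5+Bcl6- cells at 0.12 (-0.07 to 0.30, limma adjusted p = 0.357). The change in Cxcr5+Bcl6- cells passed the threshold with an intensity trend in the variance (limma adjusted p = 0.0159) and among probe sets at or above the median level (limma adjusted p = 0.0357).

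Inpp5d encodes SHIP1, a phosphatase of blood cells that removes a phosphate from the lipid product of PI3K. Its levels were 11.04 and 11.14 in Cxcr5+Bcl6+ cells, 11.07 and 11.02 in Cxcr5+Bcl6- cells, and 11.13 and 11.17 in Cxcr5-Bcl6- cells, the narrowest range of group means of the 8 genes at 0.11. The changes were -0.06 (95% interval -0.25 to 0.14, limma adjusted p = 0.664) for Cxcr5+Bcl6+ and -0.11 (-0.30 to 0.09, limma adjusted p = 0.599) for Cxcr5+Bcl6-, each over Cxcr5-Bcl6- cells, and 0.05 (-0.15 to 0.24, limma adjusted p = 0.738) for Cxcr5+Bcl6+ over Cxcr5+Bcl6- cells. With the levels quantile normalised again, the first of these was 0.05, and with centred arrays the last was -0.03.

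The order of the groups thus took more than one form among the 8 genes. Ddit4 and Pik3ip1 were highest in Cxcr5+Bcl6+, then Cxcr5+Bcl6-, then Cxcr5-Bcl6- cells. For Pik3ip1, the lower neighbours stood apart by 0.10 without passing the test. Sesn1 and Foxo3 were highest in Cxcr5+Bcl6+ cells, and their other groups did not pass the test against each other, with arrays that overlapped for Sesn1 and stood apart by 0.02 for Foxo3. Tsc22d3 was lowest in Cxcr5+Bcl6- cells, and its other groups stood apart by 0.11 without passing the test. Foxo1, Foxp1 and Inpp5d had their highest mean in Cxcr5-Bcl6- and their lowest in Cxcr5+Bcl6- cells, and no neighbouring pair passed the test. After each gene's mean over the 6 arrays was taken off, the closest pair of the 8 was Foxo1 and Inpp5d, with a root mean square difference of 0.0396 log2 units. Next came Foxo1 and Foxp1 at 0.0621, Foxp1 and Inpp5d at 0.0704, and Foxo3 and Sesn1 at 0.0881, where low values partly reflect genes that vary little. Ddit4 stood farthest from the rest, at 0.299 from Pik3ip1 and 0.585 from Foxp1.

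Genes of related function were then read from the same fit in lists, 1 probe set for each gene. Some genes, among them Foxo4, Foxp3, Inppl1 and Sgk1, stand in more than 1 list. Counts of different lists are therefore not independent. Over all 19938 genes, 16.4% were called higher and 17.7% lower (34.1% either way) in Cxcr5+Bcl6+ over Cxcr5-Bcl6- cells, 5.5% and 5.49% in Cxcr5+Bcl6- over Cxcr5-Bcl6- cells, and 11.8% and 13.2% (25% either way) in Cxcr5+Bcl6+ over Cxcr5+Bcl6- cells. Of 12 paralogs of the 8 genes, 4 were called higher and 3 lower in Cxcr5+Bcl6+ over Cxcr5-Bcl6- cells, with 0 and 1 for Cxcr5+Bcl6- over Cxcr5-Bcl6- cells and 3 and 1 between the Cxcr5+ groups. Foxo4, the third Foxo factor, averaged 8.82 in Cxcr5+Bcl6+ cells, against 8.40 in Cxcr5+Bcl6- and 8.32 in Cxcr5-Bcl6- and was higher by 0.50 in Cxcr5+Bcl6+ over Cxcr5-Bcl6- cells (limma adjusted p = 0.00103), as was Sesn3 by 0.37 (limma adjusted p = 0.00557), while Sesn2 changed by -0.13 (limma adjusted p = 0.339). Foxo6, Foxp2 and the Ddit4 relative Ddit4l were called in no comparison of groups. Tsc22d1 had the pattern of Tsc22d3, at 9.01, 8.63 and 9.04 in Cxcr5+Bcl6+, Cxcr5+Bcl6- and Cxcr5-Bcl6- cells, with changes of -0.42 for Cxcr5+Bcl6- over Cxcr5-Bcl6- cells (limma adjusted p = 0.0489) and 0.39 between the Cxcr5+ groups (limma adjusted p = 0.0369). Tsc22d2 was lower by 0.35 on the log2 scale in Cxcr5+Bcl6+ over Cxcr5-Bcl6- cells, a change of -0.35 (limma adjusted p = 0.0123), and Tsc22d4 higher by 0.37 (limma adjusted p = 0.0117). Foxp3, the factor of regulatory T cells, averaged 9.74 in Cxcr5+Bcl6+ cells, against 12.42 in Cxcr5+Bcl6- and 12.63 in Cxcr5-Bcl6-, a change of -2.89 for Cxcr5+Bcl6+ over Cxcr5-Bcl6- cells (limma adjusted p = 7.23e-09), and the part of this difference in the changes of the 8 genes was not tested. Foxp4 changed by -0.42 in the same comparison (limma adjusted p = 0.00896). The paralog Inppl1, which encodes SHIP2, was higher by 0.61 in Cxcr5+Bcl6+ over Cxcr5-Bcl6- cells (limma adjusted p = 0.000454).

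Other brakes on PI3K, Akt and mTOR were called higher in 6 and lower in 2 of 15 cases for Cxcr5+Bcl6+ over Cxcr5-Bcl6- cells, 0 and 1 for Cxcr5+Bcl6- over Cxcr5-Bcl6- cells, and 5 and 1 for Cxcr5+Bcl6+ over Cxcr5+Bcl6- cells, with median changes of 0.12, -0.01 and 0.18. Besides Inppl1, the GATOR1 subunit Depdc5 was higher by 0.58 in Cxcr5+Bcl6+ over Cxcr5-Bcl6- cells (limma adjusted p = 0.000759) and higher than in Cxcr5+Bcl6- cells by 0.40 (limma adjusted p = 0.0118). The Akt phosphatase Phlpp1 went the other way, at -1.02 (limma adjusted p = 1.01e-05) and -0.82 (limma adjusted p = 0.00012). The ubiquitin ligase Cblb had the Tsc22d3 pattern, at -0.34 for Cxcr5+Bcl6- over Cxcr5-Bcl6- cells (limma adjusted p = 0.0248) and 0.30 between the Cxcr5+ groups (limma adjusted p = 0.023). Where a list here had 0 calls for Cxcr5+Bcl6- over Cxcr5-Bcl6- cells, its limma counts at an unadjusted p under 0.05 were 2 higher for these brakes, 2 higher for the paralogs, 0 higher for the Akt and mTOR kinases and 0 lower for the forkhead relatives.

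Among 10 PI3K subunits and adaptors, 3 were called higher and 2 lower for Cxcr5+Bcl6+ over Cxcr5-Bcl6- cells, 1 and 1 for Cxcr5+Bcl6- over Cxcr5-Bcl6- cells, and 2 and 2 between the Cxcr5+ groups, with medians of 0.07, -0.14 and 0.17. The catalytic subunit Pik3cg was higher by 0.63 in Cxcr5+Bcl6+ over Cxcr5-Bcl6- cells (limma adjusted p = 0.000512), whereas its regulatory partner Pik3r5 changed by -0.98 (limma adjusted p = 1.49e-05). Pik3cd, the catalytic subunit that acts downstream of Icos, was higher over Cxcr5-Bcl6- cells by 0.48 in Cxcr5+Bcl6+ (limma adjusted p = 0.00374) and by 0.38 in Cxcr5+Bcl6- cells (limma adjusted p = 0.0407). Pik3r1, a regulatory subunit, had changes of -0.34 for Cxcr5+Bcl6- over Cxcr5-Bcl6- cells (limma adjusted p = 0.0352) and 0.40 for Cxcr5+Bcl6+ over Cxcr5+Bcl6- cells (limma adjusted p = 0.00712). Of 10 Akt and mTOR kinases and their partners, 2 were called higher and 3 lower, 0 and 1, and 1 and 1 in the 3 comparisons, with medians of -0.21, -0.06 and -0.11. The kinase Pdpk1 was higher in Cxcr5+Bcl6+ cells by 0.41 over Cxcr5-Bcl6- cells (limma adjusted p = 0.00285). It was also higher there by 0.27 over Cxcr5+Bcl6- cells (limma adjusted p = 0.041). Rheb, the small GTPase that activates mTORC1, changed by -0.65 in Cxcr5+Bcl6+ over Cxcr5-Bcl6- cells (limma adjusted p = 0.000262) and by -0.36 over Cxcr5+Bcl6- cells (limma adjusted p = 0.018). The Akt relative Sgk1, which also phosphorylates Foxo factors, changed by -0.81 in Cxcr5+Bcl6+ (limma adjusted p = 6.49e-05) and -0.52 in Cxcr5+Bcl6- cells (limma adjusted p = 0.00621), each over Cxcr5-Bcl6- cells.

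Known Foxo target genes were called higher in 7 and lower in 4 of 16 cases for Cxcr5+Bcl6+ over Cxcr5-Bcl6- cells, 5 and 2 for Cxcr5+Bcl6- over Cxcr5-Bcl6- cells, and 5 and 3 between the Cxcr5+ groups, with medians of 0.12, 0.16 and 0.10. Regulators of the cell cycle were among the higher ones. The cyclin-dependent kinase inhibitor Cdkn1b averaged 12.23 in Cxcr5+Bcl6+ cells, against 11.69 in Cxcr5+Bcl6- and 11.04 in Cxcr5-Bcl6-, the same order as Ddit4, with changes of 1.19 (limma adjusted p = 2.4e-06) and 0.65 (limma adjusted p = 0.00115) for the Cxcr5+Bcl6+ and the Cxcr5+Bcl6- group over Cxcr5-Bcl6- cells. The transcriptional coregulator Cited2 changed by 1.45 (limma adjusted p = 5.92e-07) and 0.60 (limma adjusted p = 0.0021), and Ccng2, a cyclin of resting cells, by 1.23 (limma adjusted p = 1.15e-05) and 0.80 (limma adjusted p = 0.00148), in the same order of groups. The egress receptor S1pr1 was higher in Cxcr5+Bcl6+ cells by 1.04 over Cxcr5-Bcl6- (limma adjusted p = 3.07e-06) and by 0.65 over Cxcr5+Bcl6- cells (limma adjusted p = 0.000248). The interleukin-7 receptor gene Il7r moved the other way, averaging 9.65 in Cxcr5+Bcl6+ cells, against 11.09 in Cxcr5+Bcl6- and 11.23 in Cxcr5-Bcl6-, changes of -1.58 for Cxcr5+Bcl6+ over Cxcr5-Bcl6- cells (limma adjusted p = 5.4e-07) and -1.44 over Cxcr5+Bcl6- cells (limma adjusted p = 2e-06). The 13 forkhead relatives were called higher in 3 and lower in 3 cases for Cxcr5+Bcl6+ over Cxcr5-Bcl6- cells, 1 and 0 for Cxcr5+Bcl6- over Cxcr5-Bcl6- cells, and 3 and 2 between the Cxcr5+ groups. Among them Foxm1, a factor of dividing cells, was highest in Cxcr5+Bcl6- cells, 0.82 above Cxcr5-Bcl6- cells (limma adjusted p = 0.000492), with Cxcr5+Bcl6+ cells at -0.51 from them (limma adjusted p = 0.00455).

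Tsc22d3 was set beside 10 other genes that glucocorticoids regulate. Of these, 2 were called higher and 6 lower for Cxcr5+Bcl6+ over Cxcr5-Bcl6- cells, 1 and 6 for Cxcr5+Bcl6- over Cxcr5-Bcl6- cells, and 3 and 2 between the Cxcr5+ groups, with medians of -0.55, -0.37 and -0.18. Klf9, a zinc finger factor, changed by -1.27 (limma adjusted p = 9.93e-07) and -0.81 (limma adjusted p = 0.00016) in Cxcr5+Bcl6+ and Cxcr5+Bcl6- over Cxcr5-Bcl6- cells, so it fell in both where Tsc22d3 fell in one. Dusp1, a phosphatase of MAP kinases, had the Tsc22d3 pattern, at 11.66, 11.10 and 11.69 in Cxcr5+Bcl6+, Cxcr5+Bcl6- and Cxcr5-Bcl6- cells, with a change of 0.57 between the Cxcr5+ groups (limma adjusted p = 0.00135). The chemokine receptor Cxcr4 was higher by 2.27 in Cxcr5+Bcl6+ over Cxcr5-Bcl6- cells (limma adjusted p = 1.18e-08).

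**Figure D3:**
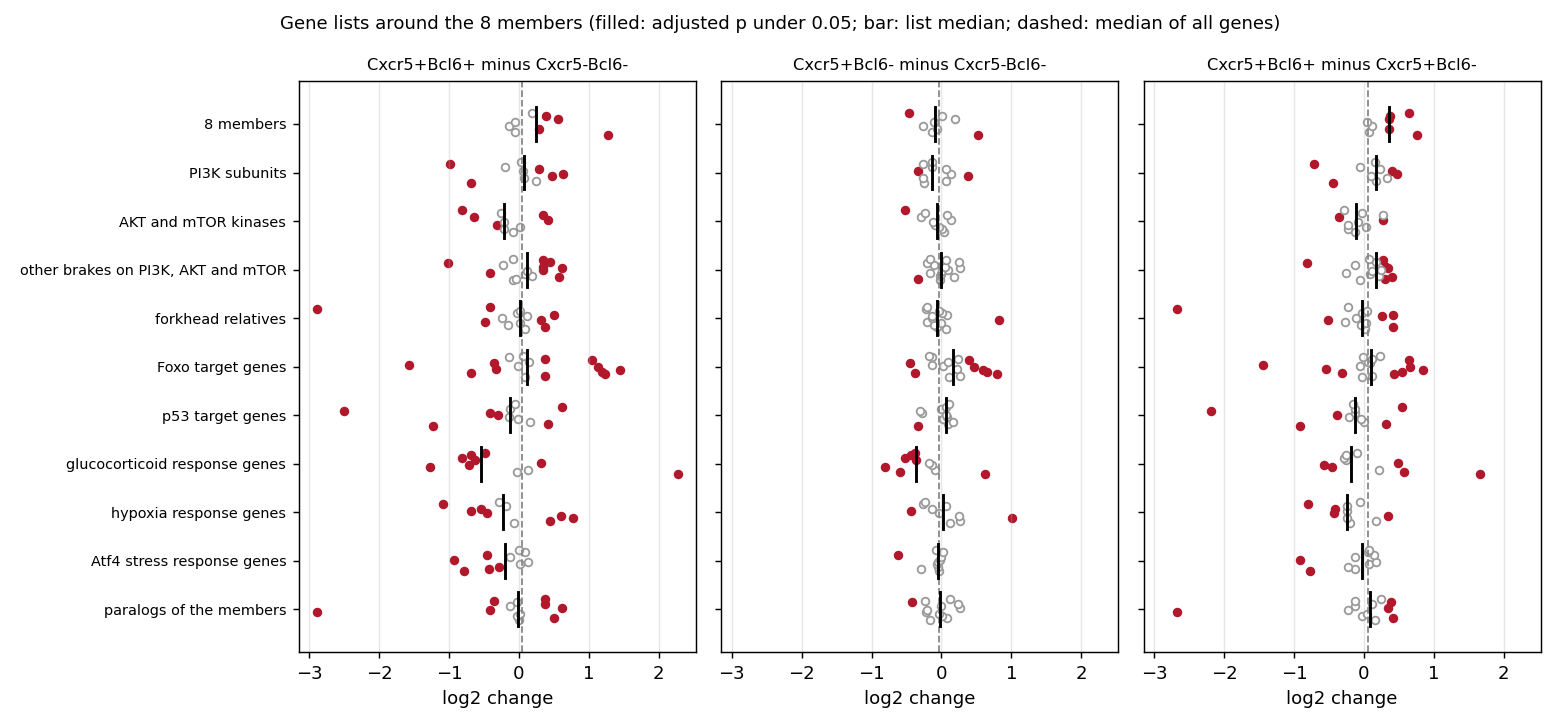
Log2 change (horizontal axis) of the 8 genes and of every measured gene of 10 pathway lists (vertical axis) in the 3 comparisons, with filled points for an adjusted p under 0.05, a black bar at the list's median and a dashed line at the median of all genes. The 8 genes have medians of 0.24, -0.09 and 0.36, and the glucocorticoid response genes lie mostly left of 0 in the first and second panels, with Cxcr4 at 2.27 far to the right in the first.

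Genes with the pattern most like each of the 8 were chosen by the smallest root mean square difference over the 6 arrays, each gene's mean taken off, among 9592 genes with a mean at or above the median of all genes. For Ddit4 they were Slc28a2b at 0.0206, Cd99l2 at 0.038 and Pcmtd2 at 0.0423, against a spread of Ddit4 around its own mean of 0.528. For Pik3ip1 they were Armc7 at 0.0397, Bnip3l at 0.0406 and Homez at 0.0416. Pcm1 at 0.0352, Pgm2l1 and Rapgef2 came nearest to Sesn1, and Vezf1 at 0.0217, Plcb3 and Brpf3 nearest to Foxo3. For Tsc22d3 they were Ttc3 at 0.0672, Arrdc3 at 0.0839 and Grn at 0.0992, against a spread of its own of 0.279. For Foxp1 they were Rnf220 at 0.0214, Laptm4a and Smo. For Foxo1, with a spread of 0.0703, they were Zfp446 at 0.0199, Slc16a13 and Klhl42. For Inpp5d, with a spread of 0.0545, they were Gigyf2 at 0.0137, Clk4 and Tgif1, and Gigyf2 lies on the same chromosome with 4 protein-coding genes between. These are descriptions over 6 arrays that share their groups.

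**Figure D4:**
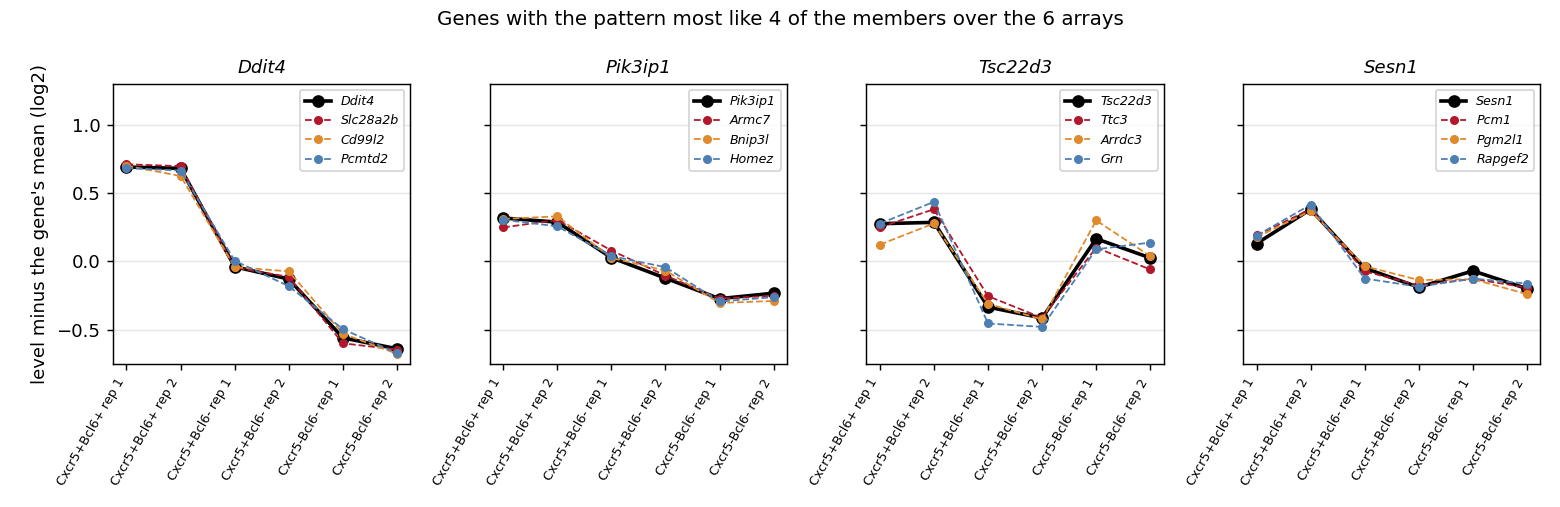
Level minus each gene's own mean in log2 units (vertical axis) on the 6 arrays (horizontal axis) for Ddit4, Pik3ip1, Tsc22d3 and Sesn1 in black and for the 3 genes with the most similar pattern in colour. The 3 neighbours of Ddit4 lie almost on its line, whereas Ttc3, Arrdc3 and Grn follow Tsc22d3 with root mean square differences of 0.0672 to 0.0992.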

How the data were processed

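Biotin-labelled total RNA from 6 samples was hybridised to Affymetrix whole-transcript arrays, 3 sorted groups with 2 arrays each. The deposited values are log2 probe-set levels normalised by the authors. Per the submitters' processing notes the tools were GCOS 1.1, RMA and Affymetrix Expression Console; the sources used here give neither their order and settings nor detection calls and the genome build. The log2 scale was read from the values, which run from 3.45 to 15.00.

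Of 35556 probe sets, 21789 carried 1 gene symbol, 1621 several and 12146 none here; of the singly named, 21698 had the symbol of the platform annotation updated through Entrez identifiers. Every named probe set entered limma 3.58.1 in R 4.3.3 (lmFit on group means over all 6 arrays, eBayes at default settings, two-sided, Benjamini-Hochberg). The fit had 3 residual and 8.251 prior degrees of freedom. Intervals are 95% intervals of the fit. A further contrast set Cxcr5+Bcl6- against the midpoint of the other groups. A gene-level value is the probe set with the highest mean. Summed marker levels are log2 of summed linear levels. The fit was also run on simulated normal data drawn with its own estimate of the spread, which cannot show how it performs on these arrays.

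The 8 members and the gene and marker lists were chosen with earlier results of these data known. Named genes are all 8 members, their paralogs, up to 3 genes of each list and comparison with the smallest p, and the 3 genes most like each member. Whether equal replicate numbers mark paired samples is unknown, and the main fit did not pair them. Deviations of equal numbers correlated at -0.046 for Cxcr5+Bcl6+ and Cxcr5+Bcl6- cells and -0.234 for Cxcr5+Bcl6+ and Cxcr5-Bcl6- cells. For Cxcr5+Bcl6- and Cxcr5-Bcl6- cells the value was 0.258. With so few arrays in each group, these values cannot decide whether samples were paired. Alternatives were an intensity trend, robust moderation, quantile normalisation, centring, filters on dim probe sets, all rows, 1 probe set per gene, 4 arrays in the fit, a stricter threshold of 0.01, the replicate block and leaving out each array.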

Additional observations from a re-analysis of the deposited data

How the results depend on the processing

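Of 12 called changes of the 8 genes, 6 kept call and direction under every alternative run: Ddit4 in all 3 comparisons, Pik3ip1 for Cxcr5+Bcl6+ over Cxcr5-Bcl6- cells, and Tsc22d3 between the Cxcr5+ groups and against the midpoint. Of 20 uncalled changes, 1 (Foxp1) passed under some alternative. The causes of the moves below were not tested. By construction, testing all rows adds rows both to the adjustment and to the shared estimate of the spread. Some other alternatives set a stricter threshold or used fewer arrays. For Cxcr5+Bcl6+ over Cxcr5-Bcl6- cells, 2 of the 8 genes were called with all rows of the table, beside 9010 of 35556 rows. At an adjusted p under 0.01, 2 of the 8 were called, beside 5895 of 23410 probe sets. In both settings the share of the 8 genes lay near that of everything tested, unlike in the main setting. For Cxcr5+Bcl6- over Cxcr5-Bcl6- cells, probe sets called numbered 2610, against 1579 with all rows, 1368 at an adjusted p under 0.01 and 1317 to 2624 without 1 array (1317 without Cxcr5+Bcl6- replicate 1, 1401 without replicate 2), and 1 to 2 of the 8 genes. Between the Cxcr5+ groups they numbered 6185, against 3643 at an adjusted p under 0.01 and 3617 to 6987 without 1 array (3617 and 3820 without Cxcr5+Bcl6- replicate 1 or 2), and of the 8 genes 3 were called with centred arrays, 3 with all rows, 2 at the stricter threshold and 2 to 5 without 1 array. Against the midpoint they numbered 1928, against 1269 among probe sets at or above the median, 1066 at the stricter threshold and 994 to 2560 without 1 array (994 and 1013 without Cxcr5+Bcl6- replicate 1 or 2). Between the Cxcr5+ groups, 5933 of 23410 probe sets were called with centred arrays and 5565 of 35556 with all rows. Centring moved the share of higher calls against the midpoint to 64.7%, against 50.5%. Signs turned only for uncalled changes near 0. These were Inpp5d for Cxcr5+Bcl6+ over Cxcr5-Bcl6- cells (0.05 after quantile normalisation) and between the Cxcr5+ groups (-0.03 with centred arrays, -0.00 without Cxcr5+Bcl6+ replicate 2, and -0.00 to 0.09 over the arrays left out), Foxo1 between the Cxcr5+ groups (-0.01 with centred arrays), and Sesn1 for Cxcr5+Bcl6- over Cxcr5-Bcl6- cells (-0.06 without Cxcr5+Bcl6- replicate 1, -0.05 without Cxcr5-Bcl6- replicate 2, and -0.06 to 0.08 over the arrays left out). With the replicate block, 7942, 2411, 5862 and 1760 probe sets were called against 8255, 2610, 6185 and 1928, and 4, 2 and 5 of the 8 genes as before. Precision is limited by how few arrays there are, and without detection calls signal over background is unknown.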

Other observations

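Ddit4 and Sesn1 are also known targets of other stress pathways, whose genes were read from the same fit. Of 10 hypoxia response genes, 3 were called higher and 4 lower for Cxcr5+Bcl6+ over Cxcr5-Bcl6- cells, 1 and 1 for Cxcr5+Bcl6- over Cxcr5-Bcl6- cells and 1 and 3 for Cxcr5+Bcl6+ over Cxcr5+Bcl6- cells, with medians of -0.23, 0.02 and -0.24. The glucose transporter gene Slc2a1 averaged 10.61 in Cxcr5+Bcl6+ cells, against 11.42 in Cxcr5+Bcl6- and 11.69 in Cxcr5-Bcl6-, a change of -1.08 for Cxcr5+Bcl6+ over Cxcr5-Bcl6- cells (limma adjusted p = 2.06e-05). The oxygen sensor gene Egln3 was higher in Cxcr5+Bcl6+ by 0.77 (limma adjusted p = 0.000165) and in Cxcr5+Bcl6- by 1.01 (limma adjusted p = 0.000114), each over Cxcr5-Bcl6- cells. Of 10 Atf4 stress response genes, 0 were called higher in any of the 3 comparisons, with 5, 1 and 2 called lower, and at an unadjusted p under 0.05 the limma fit also had 0 higher. The serine synthesis gene Psat1 changed by -0.93 (limma adjusted p = 1.02e-05) for Cxcr5+Bcl6+ over Cxcr5-Bcl6- cells.

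Of 11 p53 target genes, 2 were called higher and 4 lower for Cxcr5+Bcl6+ over Cxcr5-Bcl6- cells, 0 and 1 for Cxcr5+Bcl6- over Cxcr5-Bcl6- cells and 2 and 3 between the Cxcr5+ groups, with medians of -0.13, 0.07 and -0.13, and 0 were higher at an unadjusted limma p under 0.05 for Cxcr5+Bcl6- over Cxcr5-Bcl6- cells. Plk2, a kinase gene, averaged 6.92 in Cxcr5+Bcl6+ cells, against 9.11 in Cxcr5+Bcl6- and 9.42 in Cxcr5-Bcl6-, a change of -2.50 for Cxcr5+Bcl6+ over Cxcr5-Bcl6- cells (limma adjusted p = 3.78e-08). Trp53inp1 was higher by 0.62 in Cxcr5+Bcl6+ over Cxcr5-Bcl6- cells (limma adjusted p = 0.000198). Remaining marker lists for Cxcr5+Bcl6+ over Cxcr5-Bcl6- cells had 0 higher and 4 lower of 6 for plasma cells, 1 and 5 of 8 for CD8 T and NK cells, 2 and 1 of 7 for stromal and endothelial cells, and 0 and 0 of 3 for erythroid cells and platelets. At an unadjusted p under 0.05 in limma, 1 plasma cell marker was higher and 0 erythroid or platelet markers differed.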
